A study of Mus musculus with 4 samples.

Results

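Embryoid bodies are the round aggregates that embryonic stem cells form when they are released from the conditions that keep them undifferentiated, here in hanging drops. Day 10 embryoid bodies of the mouse embryonic stem cell line CGR8 were compared with the undifferentiated day 0 cells of the same line on 2-channel spotted arrays. The series holds 4 arrays, and the 2 whose label names day 10 are described here; the other 2 set day 3 embryoid bodies against day 0. On each day 10 array, total RNA of day 10 embryoid bodies and total RNA of day 0 cells shared the slide, and the value of each spot is read here as a log2 ratio between both RNAs. The second day 10 array is labelled a technical replicate of the first. The data therefore describe 1 RNA pair from 1 cell line, the SD given with each mean covers the spread between 2 technical arrays alone, and no p-value is given.

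No source used here names the dyes or the numerator, so "positive side" and "negative side" state the deposited sign and not which day was higher. After setting the spot median of each array to 0, all spots of a gene were averaged, and 13199 of 14386 genes had a value on both day 10 arrays. A gene is called here where both arrays lay at or beyond 1 on the log2 scale, that is 2-fold, on the same side. A ratio gives no level, so the presence of a marker in either RNA could not be checked. In bulk RNA of a mixed aggregate, fewer cells of a type and less RNA per cell cannot be told apart.

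In embryoid bodies the stem cells leave the pluripotent state that the transcription factors Oct4, Nanog and Klf4 maintain, an outer layer of extraembryonic endoderm forms, and cells inside pass through a stage that resembles the primitive streak. Mesoderm then gives rise to beating heart muscle, vessels and primitive blood, ectoderm to neural cells, and endoderm to cells that secrete apolipoproteins and basement membrane. Late embryoid bodies are thus a mixture of many cell types, and a bulk ratio averages over all of them.

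Of the 13199 genes, 284 (2.15%) were called on the positive side and 183 (1.39%) on the negative side, together 3.54%. The calls in each gene list below are to be read beside these shares. Another 195 genes (1.48%) were beyond the limit on both arrays with opposite signs. How far the arrays matched differed with a brightness measure taken from whole numbers recovered from the ratios. A ratio with no whole-number pair up to 10000 counts as bright, and 2571 of the 3300 genes of the brightest 25% rest on such ratios alone, so "bright" mostly means that no smaller pair was found and genes within this class are not ranked by brightness. In the dimmest 25% of genes 95 were called on the positive side, 41 on the negative side and 110 had opposite signs. The brightest 25% held 91 positive and 63 negative calls (2.76% and 1.91% of its 3300 genes, together 4.67%) and 2 genes with opposite signs, and Pearson r between the arrays across its genes was 0.65. Bright genes are therefore described first, and a called gene in the dimmest 25% is named as dim below. Of 154 bright called genes, 152 had all their spot readings on 1 side. Of 480 spots of accessions that are not mouse genes, taken here as controls, 259 were read on both arrays and 25 (9.65%) of these were beyond the limit on 1 side, against 4.91% of spots named for 1 gene. The median of all gene means was -0.01, but that of the bright genes was -0.12. Of bright genes 46.9% were below 0 on both arrays, against 30.8% of all genes. In the dimmest 25% the median was 0.19, and 2.88% of genes were called on the positive side.

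**Figure D1:**
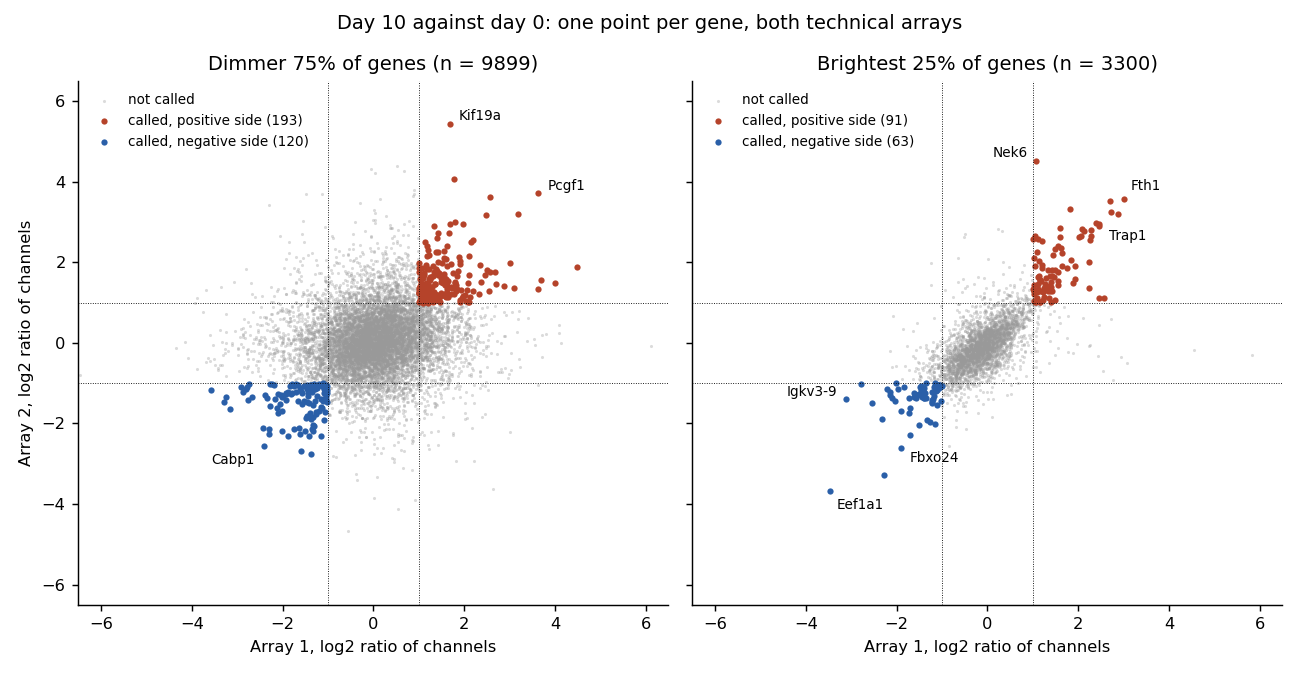
Log2 ratio of every gene on day 10 array 1 (horizontal) and array 2 (vertical), with the dimmer 75% of genes on the left and the brightest 25% on the right. Dotted lines mark the 2-fold limit and coloured points are called genes; 1 gene lies outside the plotted range. The bright genes follow the diagonal and the dim ones form a round cloud.

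**Figure D2:**
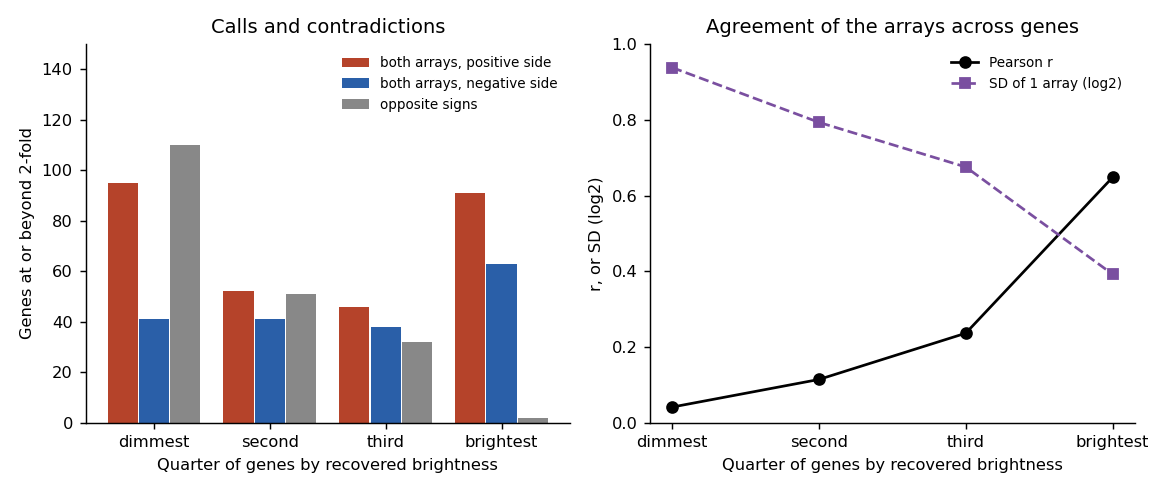
Left, genes at or beyond 2-fold on both day 10 arrays in each of 4 equal brightness classes, on the positive side, on the negative side and with opposite signs. Right, Pearson r between the arrays across genes and the SD of 1 array in log2 units. Genes with opposite signs number 110 in the dimmest class and 2 in the brightest, while r goes from 0.04 to 0.65.

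The bright gene farthest from 0 on the positive side was Fth1, the heavy chain of ferritin that oxidises and stores iron. It read 3.00 on array 1 and 3.56 on array 2 (mean 3.28 ± 0.40, where ± is the SD between both technical arrays). Its 4 spot readings ran from 2.94 to 3.83, all far above the limit. Its processed copies Fth-ps3, at 2.71 and 3.52, and Fth-ps2 lay on the same side, and spots may share signal among such near-identical copies, so their values are uncertain. At the other end stood Eef1a1, which delivers aminoacyl-tRNA to the ribosome, at -3.48 and -3.67 (mean -3.57 ± 0.14). Its pseudogene Eef1a1-ps1 read -2.29 and -3.27, with the same uncertainty.

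The 150 bases before the annotated starts of 4 genes are shown because Fth1 and Eef1a1 were the bright genes farthest from 0, Ptma was called on opposite sides at days 10 and 3, and Mt1 is a classic metal-responsive gene called at day 10. Capitals mark matches, on either strand and merged where they overlap, to 6 short motifs. The motif TATAAA is known as the TATA box and CCAAT as the box bound by the factor NF-Y, GGGCGG is the GC box bound by Sp1 and its relatives, and CACGTG is the E-box of Myc. The core of the metal response element was searched as TGCNCNC and that of the antioxidant response element as TGANNNNGC. All are from RefSeq, mouse build GRCm38.p6, and are written 5′ to 3′ on the gene's strand. The first Fth1 window is chr19:9980450-9980599 and the second chr19:9982496-9982645, both on the plus strand. The others are chr9:78481725-78481874 on the minus strand for Eef1a1, chr1:86526407-86526556 on the plus strand for Ptma and chr8:94178939-94179088 on the plus strand for Mt1. The Mt1 window lies inside the span annotated for the gene, chr8:94178883-94180327. It precedes the 1 start listed for the Mt1 promoter and not the first base of the gene. The second Fth1 window also lies inside its gene, chr19:9980600-9985111.
Fth1 (start 1): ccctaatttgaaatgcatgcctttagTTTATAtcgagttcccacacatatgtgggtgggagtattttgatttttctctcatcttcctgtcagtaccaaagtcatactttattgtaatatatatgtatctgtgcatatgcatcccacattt
Fth1 (start 2): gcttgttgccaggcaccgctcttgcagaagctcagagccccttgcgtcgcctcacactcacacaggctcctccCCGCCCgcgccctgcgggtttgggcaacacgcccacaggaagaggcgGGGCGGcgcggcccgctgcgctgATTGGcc
Eef1a1: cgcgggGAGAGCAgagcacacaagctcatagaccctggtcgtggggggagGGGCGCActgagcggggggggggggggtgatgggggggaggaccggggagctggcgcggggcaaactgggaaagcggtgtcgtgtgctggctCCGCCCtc
Ptma: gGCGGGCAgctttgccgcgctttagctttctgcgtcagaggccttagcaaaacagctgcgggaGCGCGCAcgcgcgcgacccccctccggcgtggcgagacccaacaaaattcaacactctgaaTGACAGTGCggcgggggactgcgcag
Mt1: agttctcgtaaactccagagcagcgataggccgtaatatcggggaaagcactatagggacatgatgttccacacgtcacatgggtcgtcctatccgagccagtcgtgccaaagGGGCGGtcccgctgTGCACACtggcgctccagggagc
The first Fth1 window held 1 TATA box match on the minus strand and none of the other motifs, and the second 2 GC boxes and 1 CCAAT. In Eef1a1 there were 1 GC box and 2 metal response cores, in Ptma 2 metal response cores and 1 antioxidant response core, and in Mt1 1 GC box and 1 metal response core. Among the first listed RefSeq windows of 27025 genes, 8.08% held TATAAA, 25.3% CCAAT, 29.0% GGGCGG, 4.30% CACGTG, 31.0% TGCNCNC and 23.0% TGANNNNGC. For the 10250 genes measured at day 10 that had a window, the shares in the same order were 6.38%, 27.3%, 44.0%, 5.45%, 36.1% and 23.8%. A match describes the letters and is not evidence of binding.

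After Fth1, the bright genes of the positive side belonged to varied functions. Slc22a4, an organic cation carrier that takes up ergothioneine, read 2.87 and 3.20, and Daw1, an assembly factor of ciliary dynein arms, 2.72 and 3.26. Trap1, the Hsp90 chaperone of mitochondria, read 2.47 and 2.90. Both arrays of each of these genes were beyond 4-fold. Nkx6-1, a homeobox factor of pancreatic beta cells and ventral neural tube, had nearly the same pair of values, 2.47 and 2.95. Cel, the bile salt-stimulated lipase of pancreas and milk, read 2.28 and 2.80, and the secretoglobin gene Scgb1b27 2.39 and 2.98. Ddx18, an RNA helicase of ribosome biogenesis, stood at 2.26 and 2.55. Pclaf, a PCNA-binding factor of replicating cells, read 2.13 and 2.78, and Usp9y, a deubiquitinase gene of the Y chromosome, 2.09 and 2.82. The spread between the arrays of these 10 genes was small beside their distance from 0, and array 2 gave the larger value in all 10.

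The day 3 means of these 10 genes lay between -0.52 for Cel and 1.04 for Fth1. The day 3 arrays share the day 0 RNA, so the values of both days are given side by side only. For Slc22a4 the day 3 mean was -0.18 and for Trap1 -0.07.

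Bright genes of the negative side included regulators of translation, signalling and adhesion. Fbxo24, an F-box protein of ubiquitin ligases, read -1.91 and -2.60, and Pcyt1a, the rate-limiting enzyme of phosphatidylcholine synthesis, -2.33 and -1.89. Fgfr3, a receptor for fibroblast growth factors, read -1.90 and -1.68. These 3 genes each lay clearly beyond the limit on either array. Pak7, a p21-activated kinase, read -1.71 and -2.29. Eif3j1, a subunit of the initiation factor eIF3, read -1.69 and -1.60, the closest pair of the group. Utp3, a component of the small-subunit processome in the nucleolus, read -2.03 and -1.44, Capn11, a calpain protease known from testis, -1.5 and -2.03, and the cadherin gene Cdh22 -2.55 and -1.48. Igkv3-9, an immunoglobulin light chain segment, differed most between the arrays, with -3.11 and -1.40. The day 3 means of the 10 bright negative genes ranged from -2.54 for Eef1a1 to -0.52 for Pak7.

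**Figure D3:**
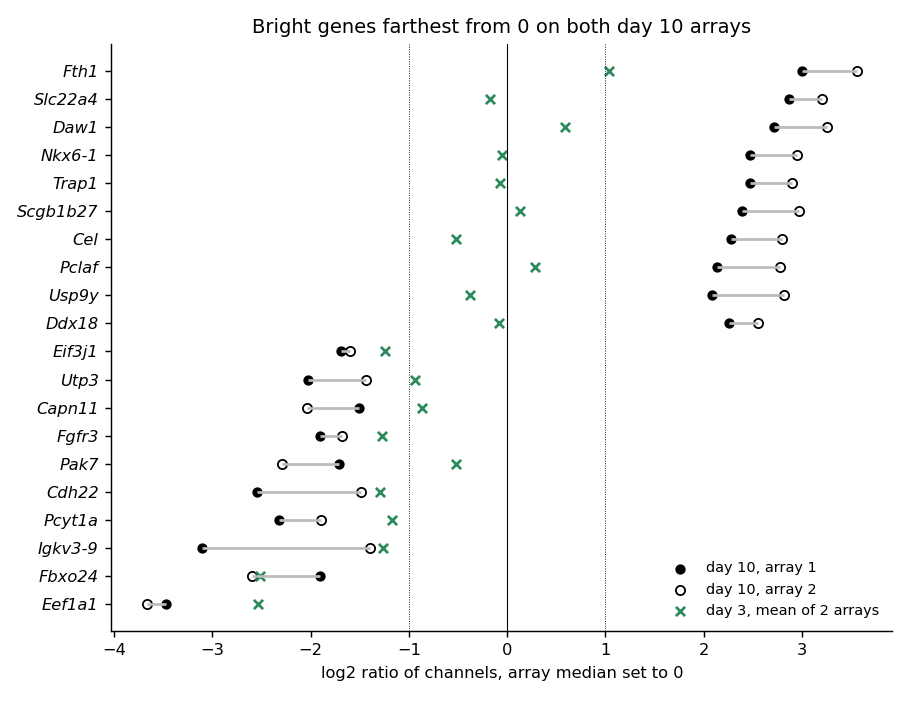
The 10 bright genes farthest from 0 on each side at day 10, with array 1 as filled and array 2 as open circles and the mean of the day 3 arrays as a cross, on the log2 scale. Fth1 and Eef1a1 mark the ends, and both day 10 points of every gene lie beyond the dotted 2-fold lines.

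Outside the brightest 25%, several genes reached equal distances on fewer or weaker readings. Pcgf1, a subunit of a variant Polycomb repressive complex, read 3.64 and 3.71, but it is dim, and its 2 readings come from different spots, so that no spot of it was read on both arrays. Hic2, a transcriptional repressor and also dim, read 2.57 and 3.62. Crebzf, a bZIP cofactor, read 2.47 and 3.17 and Slc4a8, a sodium-driven chloride bicarbonate exchanger, 2.19 and 2.56. These values lay beyond 4-fold on both arrays. On the negative side Cabp1, a calcium sensor of neurons, read -2.41 and -2.55, and Jade1, a scaffold of histone acetyltransferase complexes and dim, -2.29 and -2.27. Foxn3, a forkhead repressor, read -2.30 and -2.14, Atp11b, a phospholipid flippase, -2.44 and -2.12, and Bhmt2, which methylates homocysteine, -1.88 and -2.30. For Oxr1, an oxidation resistance factor at -2.02 and -2.19, and Tex14, an intercellular bridge protein of germ cells at -2.11 and -1.73, no spot was read on both arrays. The uncharacterised AB010352 read -1.75 and -2.13.

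Cytosolic ribosomal proteins, translation factors and aminoacyl-tRNA synthetases had medians of means below 0, and that of ribosome biogenesis genes was close to 0. Of 65 measured cytosolic ribosomal protein genes none was called on either side, against 3.54% of all genes. The list median was -0.30, and 33 (50.8%) were below 0 on both arrays. The list medians of the separate arrays were -0.37 and -0.29. Of its members 39 were bright, and the 50.8% is close to the 46.9% of bright genes as a whole; with each array centred within bins of brightness the list median was -0.22. Rps21, a small-subunit protein, lay lowest at -1.0 and -1.57, a pair that just missed the limit on array 1, followed by Rps20 at -1.27 and -0.65 and the stalk protein gene Rplp2 at -0.77 and -0.94. At the other end Rpl12 read 0.39 and 1.30. At day 3 the same list had a median of 1.05.

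Among 41 translation initiation and elongation factors, 3 were called (7.32%), all on the negative side, where 1.39% of all genes were called. The list median was -0.26. The called factors were Eef1a1, Eif3j1 and Eif3c, another eIF3 subunit, at -1.62 and -1.11. Eef2, which moves the ribosome along the mRNA, read -0.94 and -0.75 and was not called. None of 16 aminoacyl-tRNA synthetases was called, and 13 of them had means below 0, with Cars, which charges cysteine tRNA, lowest at -1.45 and -0.84. Mitochondrial ribosomal proteins had a median of -0.07 over 63 genes, with Mrpl45 called on the positive side at 1.08 and 1.0 and Mrps28 on the negative at -1.26 and -1.71, both dim. Of 34 genes of ribosome biogenesis and the nucleolus, only Utp3 was called, and the median was 0.07. The array medians of that list were 0.12 and -0.004, and the median over its 6 bright members was -0.04. Mitochondrial ribosomal proteins were even, with 21 genes above and 21 below 0 on both arrays.

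In the list of amino acid synthesis genes and stress targets of Atf4, 3 of 25 were called, all on the negative side, where 1.39% of all genes were called, and the list median was -0.15. Psph, the last enzyme of serine synthesis, read -3.29 and -1.48. Shmt2, which splits serine for folate one-carbon units in mitochondria, was bright and read -1.14 and -2.01. Slc7a1, a carrier of arginine and lysine, read -1.45 and -1.05. Both arrays placed each of the 3 on the negative side, with unequal sizes for Psph and Shmt2. The first enzyme of serine synthesis, Phgdh, stood at 0.12 and 0.50, and Cbs, which joins serine and homocysteine, at -0.85 and -1.16.

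The median of 16 glycolysis genes was -0.28 with none called, and 9 were below 0 on both arrays. Gapdh, which was spotted 464 times, had spot medians of -0.58 and -0.43, with interquartile ranges from -0.99 to -0.15 and from -0.66 to -0.24. This is the best sampled gene of the arrays. Ldhb, a lactate dehydrogenase subunit, read -1.30 and -0.87, while the other subunit gene, Ldha, read 1.17 and 0.93. Neither pair reached the limit on both arrays. Genes of oxidative phosphorylation had medians of -0.05 for complex I (25 genes) and -0.10 for complexes II to V (33 genes), and only Ndufa13, a complex I subunit, was called, at -1.49 and -1.10. Acads, which starts the oxidation of short fatty acids, was the only called member of the fatty acid oxidation list, at -1.45 and -1.18.

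Of 26 cholesterol and fatty acid synthesis genes 2 were called, on the positive side, where 2.15% of all genes were called. Msmo1, a sterol demethylase, read 1.33 and 1.26 and Sqle, squalene epoxidase and dim, 1.0 and 1.87. Sqle was not called without centring, within brightness bins or with a common spread. Mvk, mevalonate kinase, read 1.86 and 0.84 and missed the limit on array 2. The list median was 0.14, but it was -0.20 over the 3 bright members. Among 28 genes of iron handling and heme synthesis, Fth1 and Alas2, the erythroid enzyme that starts heme synthesis, dim and read from different spots, at 1.39 and 1.06, were called, and the median was -0.04. Alas2 was not called with the arrays centred within bins of brightness. Of the partners of Fth1, the light chain gene Ftl1 read 1.55 and -0.53, the exporter Slc40a1 1.86 and 0.72, and the uptake receptor Tfrc -0.03 and -0.07. Of the ferritin subunits, only the heavy chain had means on the same side of 0 on both arrays. For Ftl1, however, 3 of 4 spot readings were above 0. Its negative array 2 mean came from 1 spot that read 2.29 and -2.86, so a difference between the subunits is not shown. The 10 bright members of this list had a median of -0.50, with Alas1, the housekeeping form of the first heme enzyme, at -0.84 and -0.94.

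Mt1, a zinc- and copper-binding metallothionein, was called on the negative side at -1.35 and -1.12. Gsto1, a glutathione transferase, was called on the positive side at 1.01 and 1.34, but not without centring, within runs of spots or with a common spread. The 31 metallothionein and antioxidant genes had a median of -0.25. Sod1, the cytosolic superoxide dismutase, read -0.72 and -0.95 and was not called.

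The lists of chaperones, proteasome subunits, splicing factors and the endoplasmic reticulum had medians of means below 0. From 1.59% to 2.56% of their members were called, against 3.54% of all genes. Trap1 was the only called chaperone of 44, while 22 of the 44 were below 0 on both arrays and the list median was -0.25. Hspa5, the chaperone of the endoplasmic reticulum, read -0.80 and -0.84, and the mitochondrial pair Hspd1 and Hspe1 read -0.69 and -0.52, and -1.41 and -0.73. These 3 organelle chaperones lay below 0 on both arrays, and Trap1 above. Of 39 proteasome genes only Psmc4, a base ATPase, was called, at 1.62 and 1.90 but with no spot read on both arrays, and the median was -0.25, with array medians of 0.00 and -0.28. Splicing factors had a median of -0.27 over 63 genes (-0.12 and -0.24 on the arrays), with Prpf3 of the tri-snRNP called at -1.47 and -1.15. In the endoplasmic reticulum list of 52 genes (median -0.24) Srp19, part of the signal recognition particle and dim, read 2.03 and 1.18, again from different spots. Map1lc3b, which coats autophagosomes, read 1.44 and 1.74 and was the only called gene of 54 lysosome and autophagy genes.

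Polycomb and related complexes had the lowest median of means among the 54 lists, -0.41 over 32 genes, with 18 below 0 on both arrays. The medians of the separate arrays were -0.25 and -0.21, not the lowest on either. Pcgf1 was its only called member. Ezh1, a histone H3 lysine methyltransferase and bright, read -0.78 and -1.08, whereas its paralog Ezh2 read 0.61 and 0.53. Phc1, a Polyhomeotic subunit, read 4.55 on array 1 and -0.19 on array 2, the widest disagreement in the list. Histone genes and histone chaperones had a median of -0.26 over 32 genes with none called, and the replacement histone gene H3f3b read -0.87 and -0.78. Of 69 genes of DNA methylation and histone modification, Kdm5a, a histone demethylase and dim, read 2.50 and 1.82, Jade1 was called on the negative side as given above, and Smarcd2, a subunit of SWI/SNF remodelling complexes, read -2.28 and -1.58. The 2 Smarcd2 spots read -0.89 and -3.30, and -3.67 and 0.14, so neither spot was beyond the limit on both arrays.

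**Figure D4:**
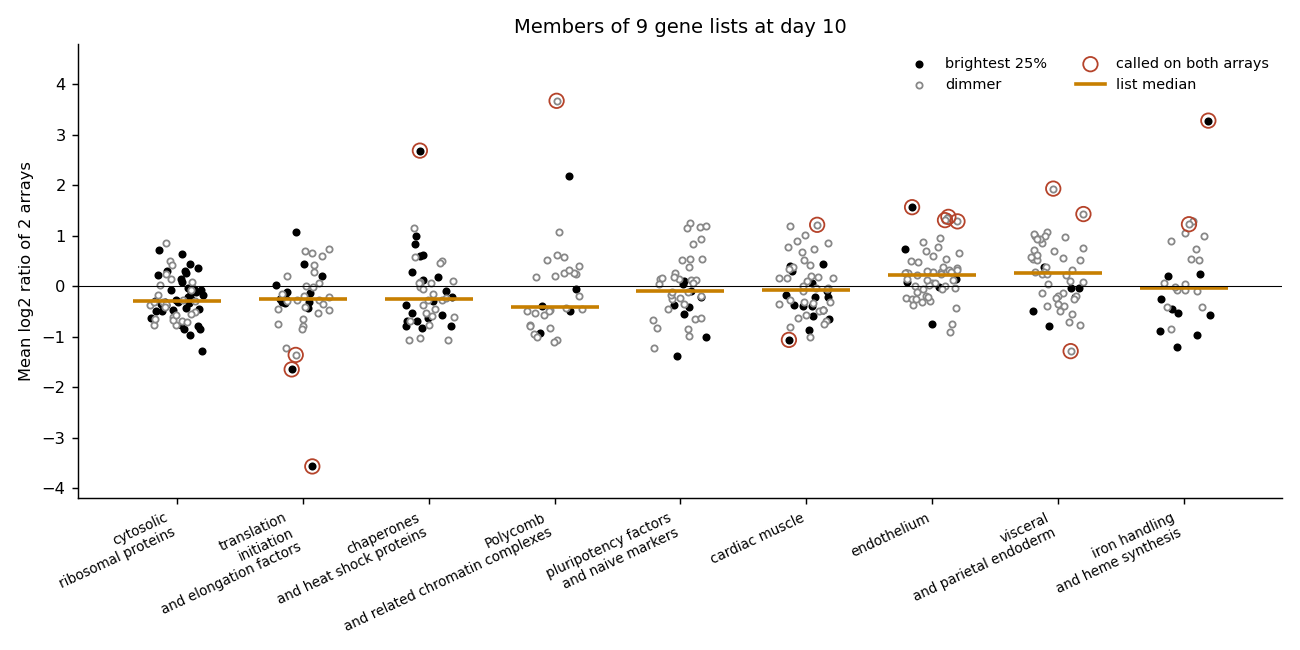
Mean log2 ratio of both day 10 arrays for each measured member of 9 gene lists; filled points are bright genes, open grey points dimmer ones, red rings called genes and bars list medians. Most members of every list lie within 1 log2 unit of 0, and the called ones are single genes such as Fth1, Trap1, Pcgf1 and Eef1a1.

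No member of the pluripotency list was called among 43, where a list of this size holds few calls at the 3.54% of all genes. Pou5f1, which encodes Oct4, read -0.69 and -2.09, Klf4 -1.17 and -0.85 and Zfp42, a marker of naive cells, -0.68 and -0.43. These 3 bright genes were below 0 on both arrays and each missed the limit on at least 1. Nanog read 0.15 and -0.59, Esrrb 0.29 and -0.80, and Dppa5a 0.41 and -2.85, so that their array means disagreed in sign. For Nanog and Dppa5a the spots within array 1 also disagreed, at 1.69 and -1.39, and at 1.36 and -0.54. Of the 4 readings of each of these genes, 3 were below 0. Fgf4, a growth factor made by pluripotent cells, read 1.51 and 0.99, just under the limit on array 2. The arrays disagreed on the list as a whole, with medians of 0.29 on array 1 and -0.43 on array 2, against -0.09 for the means. Over its 9 bright members the median was -0.37.

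None of 21 primed epiblast genes and none of 27 primitive streak and mesendoderm genes was called, with medians of -0.16 and 0.01. At the 3.54% of all genes, lists this short also hold few calls. The bright somite factor gene Tcf15 read -0.83 and -0.85. Mesp1, of early mesoderm, had a value on array 1 alone, 1.55.

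Endoderm markers had a positive median with mixed members. Of 50 visceral and parietal endoderm genes 2 were called on the positive side and 1 on the negative, together 6% against 3.54% of all genes. On both arrays 23 (46%) were above 0, against 30.0% of all genes. The median was 0.25, which became -0.13 over the 6 bright members. Cited1, a transcriptional cofactor, read 2.37 and 1.5 and Krt19, a simple epithelial keratin, 1.11 and 1.74. Apoc3, an apolipoprotein that slows triglyceride clearance, lay on the other side at -1.35 and -1.22. All 3 called genes are dim. Gata4, an endoderm and heart factor, read 0.01 and 1.72, from different spots on each array. Sox17 read -0.02 and 1.08, Apoe 1.66 and 0.51, and Sparc, a basement membrane glycoprotein, 1.43 and 0.43. Afp and Ttr, secreted products of visceral endoderm, read -1.36 and -0.16, and -1.14 and -0.27. Single members thus reached the limit on 1 array only, on either side.

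Among 55 endothelial genes 4 were called, all on the positive side. Cldn5, the claudin of vascular tight junctions, read 1.60 and 1.15, Plvap, which spans the diaphragms of endothelial pores, 1.38 and 1.19, and Mmrn1, a multimerin stored in platelets and endothelium, 1.03 and 1.59. Egfl7, a secreted factor of vessel sprouts and the only bright gene of the 4, read 1.02 and 2.11. The 4 are 7.27% of the list, against 2.15% of all genes, but Cldn5 and Plvap are dim. Cldn5 was not called within runs of spots, within brightness bins or on its best matching spot, and its 2 spots read -0.27 and 3.47 on array 1. Mmrn1 was not called within brightness bins or with a common spread. The list median was 0.23, with array medians of 0.30 and 0.15, and 37 of 55 means were above 0. Kdr, Pecam1 and Cdh5 had means near 0, whereas Vwf and Etv2 did not. Kdr, the main VEGF receptor, read -0.27 and 0.18, Pecam1 0.30 and -0.19, and Cdh5, the bright endothelial cadherin, 0.28 and -0.02. Vwf, a clotting factor carrier, read 0.84 and 1.08, and Etv2, which starts the endothelial programme, -0.71 and -0.80.

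In 34 erythroid and early blood genes Epor, the erythropoietin receptor, was called at 1.41 and 1.18 besides Alas2, both dim, and the median was 0.08. Embryonic globins did not pass: Hbb-bh1 read 0.97 and 1.27, Hbb-y 1.29 and 0.58, and Hba-x -0.04 and 0.26. Ank1, of the red cell membrane skeleton, read 0.98 and 1.12. Gata1, the erythroid master factor, had a value on array 1 alone, -0.71.

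Of 52 cardiac genes 1 was called on each side, together 3.85% against 3.54% of all genes, and the median was -0.08. Kcnj2, the inward rectifier channel of heart and skeletal muscle, read 1.02 and 1.42 and is dim. Myom1, myomesin of the sarcomere M-band, is bright and read -1.09 and -1.04. Neither was called with the arrays centred within bins of brightness, and Kcnj2 also not within runs of spots or with a common spread. Familiar sarcomere genes were not called: Tnnt2 read -0.22 and -0.19, Actc1 -0.38 and -0.36, Myh6 0.06 and 0.26, and Myl7 -1.29 and -0.72. Nkx2-5, the early heart factor, read -0.41 and 0.29. Of skeletal muscle genes Myf6, a bright myogenic factor, was called at -1.46 and -1.11. Among 62 smooth muscle and actin-binding genes Tagln2, a transgelin, read 1.2 and 1.47 and Actn1, an actin crosslinker, 1.01 and 1.31, both dim and both called. Tagln itself read 0.71 and 1.83.

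Neural genes held 1 call among 72, Cabp1 on the negative side, and a median of 0.07. Nes, the neural progenitor filament and a bright gene, gave -0.59 on both arrays. Tubb3, of neurons, read 1.17 and 0.53 from different spots, and Pax6 0.56 and -1.12. Of 42 Hox and ParaHox genes, Hoxc5 was called at 1.91 and 1.06 and Pdx1, the pancreatic ParaHox factor, at -1.16 and -1.39, both dim. The only Pdx1 spot read on both arrays gave opposite signs, -1.16 and 0.80. Its other spot read -3.58 on array 2 alone.

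Among 43 cilia genes 3 were called (6.98%), all on the positive side, against 2.15% of all genes, and the median was -0.06. Besides Daw1 these were Kif27, a motor related to the Hedgehog regulator Kif7 and dim, at 2.70 and 1.47, and Kif19a, a kinesin that limits cilium length, at 1.68 and 5.43. The 5.43 is a single reading, of a spot that read 2.14 on array 1. The other Kif19a spot read 1.22 on array 1 alone, and the SD between the arrays was 2.65. Of the other microtubule motors, Kif3c at -1.75 and -1.08 and Kif17 at -1.18 and -1.04, both kinesin-2 motors, were called on the negative side. The axonemal dynein chains and intraflagellar transport genes of the list were not called; Dnah1, a bright inner-arm chain, read -0.70 and -0.81. Over its 8 bright members the list median was -0.55.

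Of 64 FGF, Notch and Hedgehog genes 3 were called, 4.69% against 3.54% of all genes. The ligand Fgf18, at 1.68 and 2.94, was called on the positive side. On the negative side were the receptor Fgfr3, given above, and Spry4, a feedback inhibitor of receptor tyrosine kinases, at -2.20 and -1.14. Both are bright. Other feedback genes of the same pathway were smaller in size, with Etv4 at -0.76 and -0.43 and Spred1 at -0.53 and -0.52, and the receptors Fgfr1 and Fgfr2 read -0.14 and 0.46, and 0.12 and 0.04.

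In the Wnt pathway 2 of 64 genes were called, the receptors Fzd9 at 1.29 and 1.17 and Fzd2 at 1.46 and 1.16, both dim and Fzd2 with no spot read on both arrays. The ligand Wnt3a read 0.78 and 1.36, and the target Axin2, a feedback scaffold of the destruction complex, 0.03 and -0.08. The BMP, Nodal and TGF-beta list of 62 genes had 2 calls on the negative side, Ltbp2, a latent TGF-beta binding family member of microfibrils, at -1.44 and -1.24, and the Nodal partner Gdf1, read from different spots, at -1.38 and -1.05. Chrd, a bright extracellular BMP antagonist, read -1.49 and -0.82. Of 51 retinoic acid and nuclear receptor genes 3 were called (5.88%), all on the negative side, against 1.39% of all genes. Crabp2, which carries retinoic acid to its receptors, read -1.71 and -1.22, the vitamin D receptor gene Vdr, which is dim, -1.09 and -1.39 and the oestrogen receptor gene Esr2 -1.06 and -1.40. The retinoic acid-degrading enzyme gene Cyp26a1 read 0.71 and 1.26 and was not called.

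Insulin-like growth factor genes gave 1 call on each side among 19. Igf2, the imprinted fetal growth factor, read -1.62 and -2.26 but was dim, at percentile 3.33. Igfbp7, a secreted binding protein of vessels and matrix, was bright and read 1.55 and 2.40. Igf2r, which clears Igf2 from the cell surface, read 0.68 and 0.98. Of 48 imprinted genes 6.25% were called, Igf2 among them, against 3.54% of all genes. On the positive side Rasgrf1, a Ras exchange factor and very dim, read 2.35 and 1.94, and Impact, a bright inhibitor of the kinase Gcn2, 1.2 and 2.53. The noncoding H19, a neighbour of Igf2, read -0.53 and 0.16. Among 70 extracellular matrix genes only Loxl2, a collagen and elastin crosslinker with 4 spots, was called, at 1.65 and 1.54. Its array 1 value came from 1 spot, the only one read on both arrays. Its 3 readings on array 2 were -0.50, 2.50 and 2.62.

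Cell cycle genes were called singly. Cdk1, the mitotic kinase, read 1.77 and 1.23 with no spot read on both arrays, and Cenpf, a bright kinetochore protein gene, 1.15 and 1.29, against a median of -0.13 over 68 mitosis genes. Mki67, the proliferation marker, read -0.46 and -1.16. In DNA replication Pold1, a polymerase subunit and dim, read 1.93 and 1.32 and Tk1, thymidine kinase, -1.06 and -1.21. The 28 inhibitors of cyclin-dependent kinases and targets of p53 had a median of means of 0.28, with array medians of 0.16 and 0.10 and none called; Cdkn1c read 0.51 and 0.93 and Cdkn1a -1.12 and 0.62. None of 35 apoptosis genes was called. Of the transcription machinery, Ccnh, a cyclin of the TFIIH kinase, read 1.41 and 2.59, Gtf2f1, a TFIIF subunit, dim and read from different spots, 1.07 and 1.29, and Cdk9, the elongation kinase, -1.11 and -1.07.

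Further called list members were Slc25a10, the mitochondrial dicarboxylate carrier and bright, at 1.5 and 1.82, and Ptma, prothymosin alpha, an acidic nuclear protein and bright, at -1.85 and -1.09. Ppia, cyclophilin A, read -0.79 and -0.46. Actb, cytoplasmic actin, stayed near 0 at -0.26 and -0.01. Of the epithelial list only Cldn5 and Krt19 were called; Krt8 read 1.26 and 0.26, and Vim, of mesenchymal filaments, was beyond the limit with opposite signs, -1.29 and 1.72. Cdh2 read -2.13 and 0.29.

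Markers of other cell types that a culture could hold gave few calls, but lists this short hold few at the 3.54% of all genes. Of 27 macrophage and leukocyte genes none was called, with a median of -0.01 and array medians of -0.20 and 0.28. None of 24 fibroblast feeder genes was called (median 0.13), among them Col1a1 at 0.26 and -0.62. Of 23 trophoblast genes the bright Psg17, a pregnancy-specific glycoprotein, was called at 1.25 and 1.13, and of 28 germ cell genes Tex14 on the negative side. These lists had medians of 0.00 for both trophoblast and germ cell genes.

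**Figure D5:**
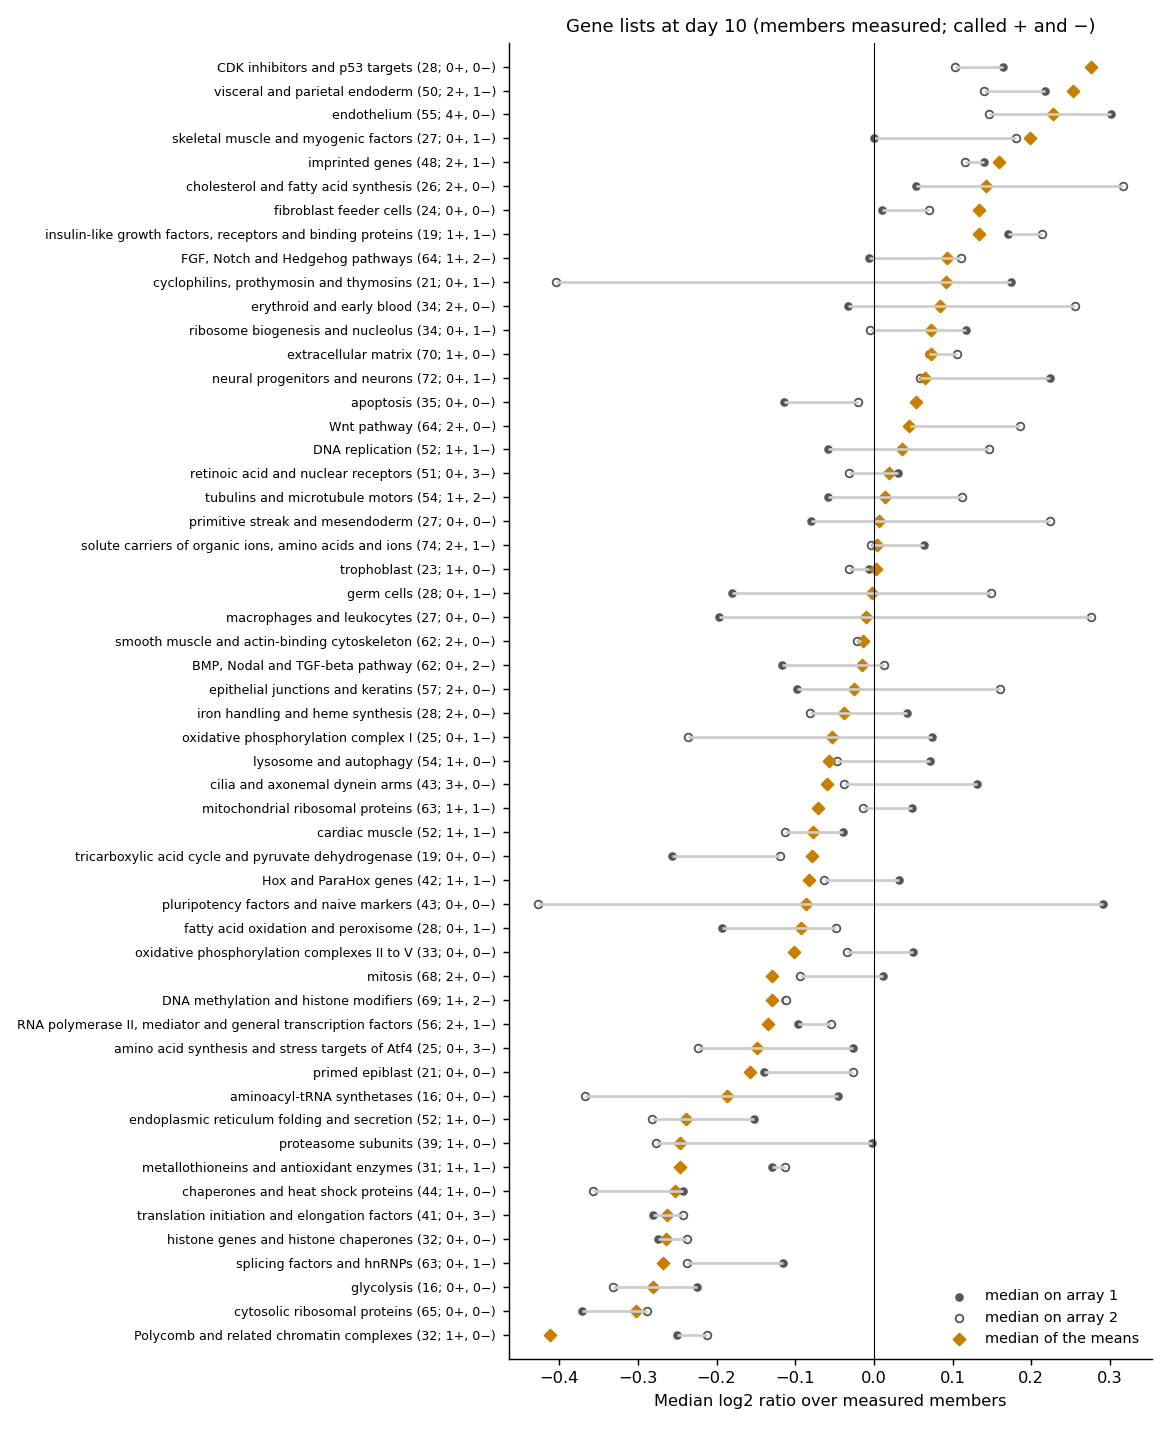
Medians of all 54 gene lists at day 10, on array 1 (filled), on array 2 (open) and over the means of both arrays (diamonds), with members measured and called on each side in parentheses. The median of means can lie outside the array medians because it is taken over other values. By the median of means Polycomb genes (-0.41) and cytosolic ribosomal proteins (-0.30) stand at the lower end and cyclin-dependent kinase inhibitors (0.28) at the upper, an order that the separate arrays do not keep, and the pluripotency list spans 0 between its arrays.

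Of the 93 called genes chosen by the naming rule, 23 lost the call under at least 1 other setting at the 2-fold limit. Besides those described above, Actn1, Kif17, Mrpl45 and Tk1 lost it under 2 or more centring, spread or spot rules. Pdx1 and Pold1 lost it when spots were limited to those read on both arrays. Hoxc5 and Gtf2f1 lost it within brightness bins, and Epor, Fzd9 and Slc7a1 within runs of spots. Eif3c, Esr2, Prpf3, Smarcd2 and Vdr lost it on their best matching spot. The mean of each of the 23 kept its sign under these settings, although the arrays disagreed in sign on the Pdx1 spot read on both.

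Called bright genes were also described by their promoters. A RefSeq promoter was matched for 75 of 91 positive and 48 of 63 negative bright called genes and for 2441 bright genes that were not called. The GC box was present in 37.3% of positive, 45.8% of negative and 42.9% of bright genes not called. TATAAA was present in 2 of the 75, in 0 of the 48 and in 6.60% of those not called, and CACGTG in 1, in 0 and in 4.47%. Median GC content was 59.3% in both called groups and 60% in the bright genes not called. The motif shares of the called groups are counts from few genes and were not tested. By chromosome, the share of genes called ran from 2.0% on chromosome 9 to 5.17% on chromosome 12, leaving out the Y chromosome, where 2 of 14 were called.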

How the data were processed

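Log2 ratios of the channels, 1 per spot, were deposited by the authors for 4 arrays. No source used here names the scanner, background treatment, dyes, numerator or the reason for missing values. Per the labels, each array paired embryoid body RNA with day 0 RNA. Values existed on 37471 and 39955 of 46128 spots of the day 10 arrays. Precision is limited by having 2 arrays.

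Spots were named through the platform's probe table and RefSeq genes (GRCm38.p6): 32544 had 1 symbol, 588 several, 12996 none, and 480 spots taken here as controls were left out. Arrays were centred on the median of the remaining spots and spots averaged per gene. For recovered brightness, the smallest pair of whole numbers up to 10000 whose log2 ratio matches a value within 5e-10 was found, and the log2 values of the pair were averaged. A common factor cannot be recovered. Such a pair bounds the brightness from below only if the ratios were formed from whole-number readings, which is not known. Values without such a pair got larger numbers, for example 337333 and 64145 for a Ddx18 spot on array 1, and count as bright. No bound is claimed for these values.

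The members and lists were chosen with earlier results of these data known. The 54 lists were described by counts and medians, without a test. Named genes were, on each side, the 12 called genes with the largest smaller-array value (10 among bright genes), leaving out RIKEN, predicted and pseudogene names, up to 3 called members per list and side, and 50 followed genes, of which 5 had a value on 1 array and 2 were on no named spot. Egfl7, the pseudogenes and the list members not called, apart from the followed ones, were chosen after their values were seen. The steps were tested on simulated data. Python 3.11.15, numpy 2.4.6, pandas 2.3.3 and matplotlib 3.10.9 were used. Alternatives were other centring, spread, limits, spot rules, bright genes alone and each array left out.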

Additional observations from a re-analysis of the deposited data

Results flagged for a closer look

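Given here are named genes called on both days, on opposite sides at day 10 and day 3. Gene lists are included where all array medians lay at least 0.20 from 0, on opposite sides at each day. The difference between the days was not tested. Ptma, prothymosin alpha, had -1.47 ± 0.53 at day 10 and 2.79 ± 0.07 at day 3 (mean ± SD of 2 technical arrays). Apoc3, an apolipoprotein gene with dim spots, had -1.29 ± 0.09 and 1.5 ± 0.31. Other named genes lay on opposite sides of 0 on both arrays of each day without a call on both days. Among them was Ppia, cyclophilin A, at -0.62 ± 0.23 (not called) and 2.59 ± 0.04 (called). The median of cytosolic ribosomal proteins was -0.30 at day 10 and 1.05 at day 3, and that of histone genes and histone chaperones -0.26 and 0.20. Both days share the day 0 RNA.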

How the results depend on the processing

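With 1 RNA pair, 2 technical arrays and no significance test, every count rests on the 2-fold limit and the brightness of the spots. Of genes called on the positive and negative side (284 and 183), 980 and 862 were called at a 1.5-fold limit, 22 and 7 at 4-fold, 806 and 599 with the limit on the mean alone, and 441 and 314 when each gene took its best matching spot (the one whose arrays differed least), which kept 220 and 114 of the genes. The brightest 25% of genes held 91 and 63. Leaving out 1 array gave 1174 to 1395 on the positive and 927 to 1262 on the negative side. The positive share of calls was 60.8%, 75.9% at 4-fold, 53.2% at 1.5-fold, and 52.5% and 55.9% with 1 array left out. No centring gave 259 and 199, centring within 48 runs of spots 271 and 175, centring within 50 bins of brightness 267 and 177, a common spread 270 and 186, and the median of spots 283 and 183; every gene has at least 2 spots, so that filter removed none. Only spots read on both arrays, an alternative chosen after seeing the data, gave 308 and 192. Of 93 named called genes, 4 were not called without centring, 9 within runs, 11 within brightness bins and 5 with a common spread; of the 83 with a spot read on both arrays, 12 were not called on the best matching spot and 4 on spots read on both. No paired analysis was possible because the result comes from no test and the labels carry no replicate numbers.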
